A study of Homo sapiens with 24 samples.

Results

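The DNA damage checkpoint kinases and CDC25 phosphatases examined here are 10 genes of 17687 measured: ATM, ATR, CHEK1, CHEK2, WEE1, PKMYT1, CDC25A, CDC25B, CDC25C and CLSPN. They were taken by symbol from the array table, and each was measured by 1 probe set. The cells were ES8, a human Ewing sarcoma line, as the parental line and as ES8-1F2, a derivative in which SLFN11 had been knocked out with CRISPR/Cas9. Gamma radiation was given to each line at a dose of 0 Gy or 2 Gy, with RNA taken 4 h or 24 h later, which gave 8 groups of 3 arrays. The labels name no drug, and the 0 Gy cells served as controls at each time. The knockout is represented by 1 derivative line, so loss of SLFN11 and any other difference between the lines cannot be told apart.

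These genes form the signalling chain that stops the cell cycle after DNA damage. ATM responds mainly to double-strand breaks and ATR to single-stranded DNA at stalled forks, and they activate the kinases CHK2 (CHEK2) and CHK1 (CHEK1), the latter with the help of the mediator claspin (CLSPN). The checkpoint kinases restrain the CDC25 phosphatases, which otherwise remove the inhibitory phosphates that WEE1 and PKMYT1 place on cyclin-dependent kinases. Much of this control acts on proteins, by phosphorylation and degradation, and the arrays read mRNA only.

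SLFN11 was lower on every knockout array, by 1.38 to 1.53 on the log2 scale in the 4 conditions (limma, adjusted p = 1.07e-18 for their mean), but it stayed above background, and where the deletion lies relative to the probe set is not given in the labels. Of the Ewing sarcoma markers, 9 of 10 were measured and all 9 were above background on all 24 arrays. Of the markers of other cell types, EPCAM and PTPRC were above background on 4 arrays and 1 array, and CDH1 and KDR on none, although 3 of 6 epithelial, 1 of 4 blood, 1 of 4 endothelial and 2 of 4 fibroblast genes measured were above it on all arrays. Background was set on each array at percentile 95 of its negative control signals, between 3.46 and 3.81. Replicate 2 of both parental 2 Gy groups had the narrowest signal ranges. The labels do not say that replicates were separate cultures, so the spread behind every p-value is that between these arrays and may be technical.

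Between the lines, CDC25C and CDC25B differed most among the 10 genes, and in opposite directions. CDC25C, the phosphatase that helps to switch on cyclin B and CDK1 at mitotic entry, was 1.57-fold higher in knockout cells averaged over the 4 conditions, and CDC25B, which starts that switch in late G2, was 1.35-fold lower. WEE1 was 1.14-fold lower and CLSPN 1.16-fold higher. These 4 genes passed the test in the mean of the 4 conditions (limma, adjusted p below 0.05 over all genes), as did 30.4% of all genes, so 4 of 10 lies near the share of the array as a whole. The median difference was 0.01 over the 10 genes and -0.02 over all genes. In a bulk sample, fewer cells in the phase that expresses such a gene and less RNA per cell cannot be told apart.

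The CDC25C signal in parental cells, in replicate order, was 6.83, 6.38 and 6.70 at 0 Gy and 4 h, 6.65, 6.62 and 6.28 at 0 Gy and 24 h, 6.41, 5.47 and 6.49 at 2 Gy and 4 h, and 6.73, 6.32 and 6.54 at 2 Gy and 24 h. In knockout cells it was 7.44, 7.34 and 7.18, then 7.19, 7.25 and 7.14, then 7.02, 6.79 and 6.84, then 6.93, 7.01 and 7.06, in the same order of conditions. Within each condition all knockout arrays lay above all parental arrays. Across conditions the ranges met at 1 point, since the highest parental array (6.83) lay just above the lowest knockout array (6.79). The difference was 0.68 ± 0.17 (SE) at 0 Gy and 4 h, 0.68 at 0 Gy and 24 h, 0.76 at 2 Gy and 4 h and 0.47 at 2 Gy and 24 h, each between 2 groups of 3 arrays. It passed the test in the first 3 (limma, adjusted p = 0.00602, 0.00643 and 0.00209) but not in the last (adjusted p = 0.0732). The mean of the 4 conditions was 0.65 ± 0.09 (SE, limma, adjusted p = 2.29e-07). Without parental replicate 2 the 0 Gy, 4 h difference was 0.56 (adjusted p = 0.0654), and without parental replicate 3 the 0 Gy, 24 h difference was 0.56 (adjusted p = 0.0629). At 2 Gy and 4 h, leaving out the low parental replicate 2, one of the narrow-range arrays, gave 0.43, still called (adjusted p = 0.0491).

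**Figure D1:**
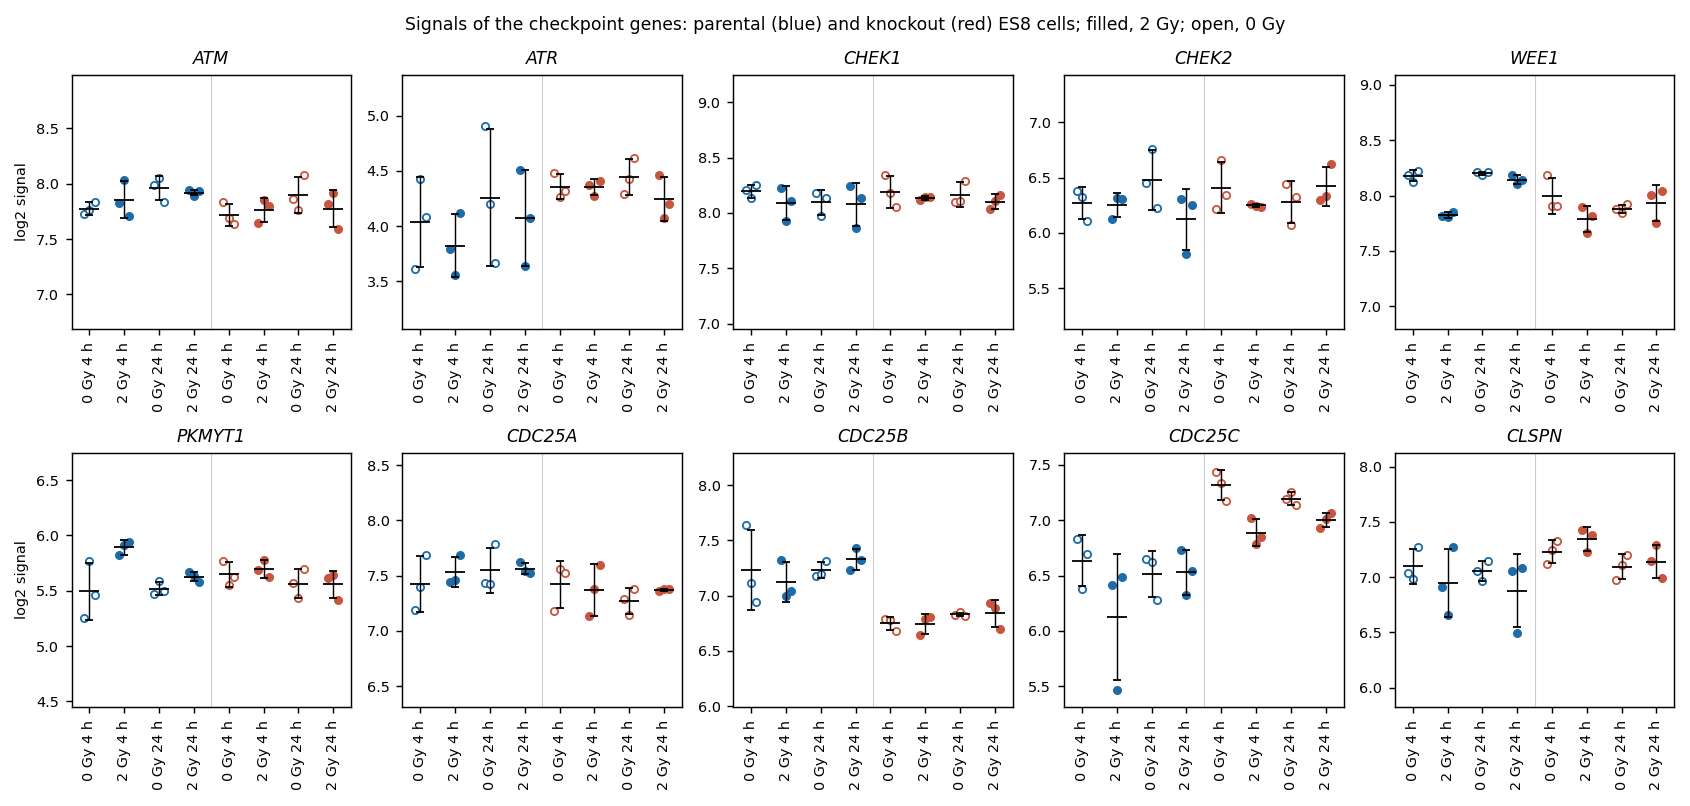
Log2 signal of each of the 10 genes (y axis, the same span in every panel) in the 8 groups (x axis, dose and time); points are arrays, horizontal bars group means and vertical bars the SD of 3 arrays, parental cells blue and knockout cells red, 0 Gy open and 2 Gy filled. All CDC25B arrays of the knockout line lie below all parental arrays, CDC25C shows the opposite order within each condition, and the 3 WEE1 arrays of parental cells at 2 Gy and 4 h (7.80 to 7.85) lie under the other parental arrays.

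CDC25B ran the other way. Its signal in parental cells was 7.64, 7.12 and 6.94 at 0 Gy and 4 h, 7.18, 7.20 and 7.31 at 0 Gy and 24 h, 7.33, 7.00 and 7.04 at 2 Gy and 4 h, and 7.24, 7.43 and 7.32 at 2 Gy and 24 h. In knockout cells it was 6.79, 6.78 and 6.68, then 6.82, 6.85 and 6.82, then 6.64, 6.79 and 6.81, then 6.93, 6.89 and 6.70. Every knockout array lay below every parental array, whatever the dose and time. The difference was -0.48 at 0 Gy and 4 h and -0.40 at 0 Gy and 24 h (limma, adjusted p = 0.00954 and 0.0379), -0.38 at 2 Gy and 4 h (adjusted p = 0.0509, not called) and -0.49 at 2 Gy and 24 h (adjusted p = 0.00843), each with an SE of 0.13. The mean was -0.44 ± 0.06 (SE, limma, adjusted p = 1.42e-06). At 0 Gy and 4 h parental replicate 1 was the highest array, and the difference was -0.28 without it (adjusted p = 0.176). At 0 Gy and 24 h the call was lost without any 1 of the 6 arrays compared (-0.36 to -0.43, adjusted p = 0.0677 to 0.14), with no intensity trend (adjusted p = 0.0584) and with median centring (-0.39, adjusted p = 0.0526), and at 2 Gy and 24 h without knockout replicate 3 (-0.42, adjusted p = 0.0597).

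The genes around CDC25B on chromosome 20 were lower in knockout cells as well. Of the 20 measured genes on each side of CDC25B with a mean signal above 6, in the gene order of the RefSeq reference, 36 of 40 were called lower and 1 higher, with a median difference of -0.71 in the mean of the 4 conditions. CDC25B itself, at -0.44, ranked 34 of 41 from the lowest. With no minimum signal the median was -0.47 and CDC25B ranked 23 of 41. Around CDC25C on chromosome 5 the same count was 10 higher and 7 lower of 40, with a median of 0.04, and CDC25C ranked 39 of 41. The neighbours that exceeded it were EGR1 (1.28), an immediate early transcription factor, and CXXC5 (0.76). Around WEE1 on chromosome 11 the count was 6 higher and 5 lower, with a median of -0.02. For the other 7 genes the neighbours' medians lay between -0.04 and 0.03. In this comparison 30.4% of all genes, with no minimum signal, were called (2794 higher and 2591 lower). The counts and medians of neighbours are descriptions without a test, and DNA copy number was not measured here.

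**Figure D2:**
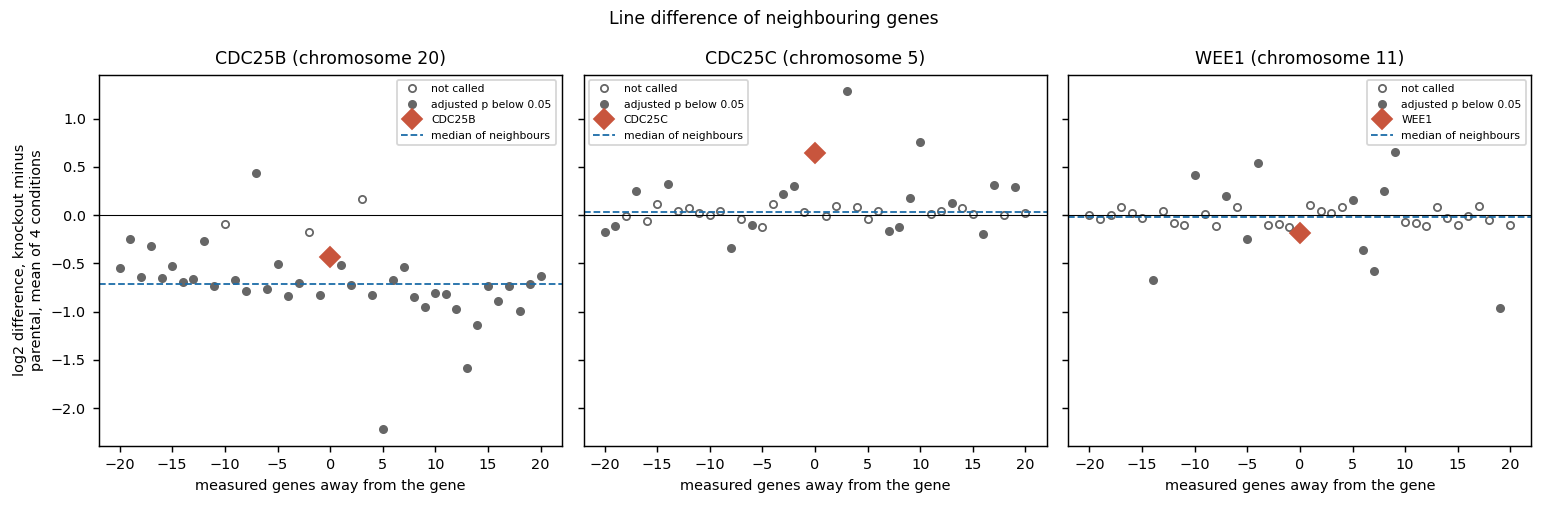
Difference in log2 signal between knockout and parental cells, mean of the 4 conditions (y axis), for CDC25B, CDC25C and WEE1 (red diamonds) and the 20 measured genes on each side (x axis, number of measured genes away); filled points passed the test and the dashed line is the median of the neighbours. The neighbours of CDC25B are shifted down together (median -0.71), whereas those of CDC25C and WEE1 scatter around 0.

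The promoters of 8 of the 10 genes were matched in RefSeq (build GRCh38.p14), as 17 windows of 300 bases. WEE1 and PKMYT1 had no promoter entry and were not searched. The cell cycle genes homology region (CHR, searched as TTTGAA on both strands) is an element through which genes of G2 and mitosis are repressed outside those phases, and sites of the E2F type (searched as TTTGGCGC, TTTCCCGC, TTTGCCGC and TTTCGCGC on both strands) mark many genes of G1/S. The CHR letters were found in windows of CDC25C, the gene that differed most between the lines, and of ATM, which did not pass any test. E2F letters were found in the windows of CDC25A and CLSPN. The 30 bases around each are shown with the motif in capitals, on the gene's strand.
CDC25C, CHR, chr5:138331817-138331846, minus strand: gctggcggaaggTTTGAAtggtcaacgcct
ATM, CHR, chr11:108223035-108223064, plus strand: agtcacgcagggTTTGAAccggaagcggga
CDC25A, E2F, chr3:48188443-48188472, minus strand: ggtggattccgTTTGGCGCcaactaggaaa
CLSPN, E2F on the opposite strand, chr1:35769965-35769994, minus strand: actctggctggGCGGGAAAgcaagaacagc
The CDC25C site begins 30 bases before 1 of its RefSeq start sites, and it fell in 2 of the 4 windows of the gene. Of all 35116 promoter windows of this length, 15.2% held the CHR letters and 3.31% one of the E2F letters, so a match alone is common for the first and rarer for the second. A match describes the letters only, and binding was not measured.

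WEE1, the kinase that phosphorylates CDK1 in the nucleus, was lower in knockout cells by a small amount. In parental cells its signal was 8.19, 8.13 and 8.23 at 0 Gy and 4 h, 8.21, 8.18 and 8.21 at 0 Gy and 24 h, 7.82, 7.80 and 7.85 at 2 Gy and 4 h, and 8.19, 8.10 and 8.14 at 2 Gy and 24 h. In knockout cells it was 8.19, 7.91 and 7.90, then 7.88, 7.84 and 7.92, then 7.89, 7.66 and 7.82, then 8.01, 7.75 and 8.04. The parental 2 Gy, 4 h arrays stood apart from all other parental arrays and lay within the range of knockout cells. The lines did not overlap at 24 h, at either dose, but overlapped at 4 h. The difference was -0.32 ± 0.09 (SE) at 0 Gy and 24 h (limma, adjusted p = 0.0168), -0.18 at 0 Gy and 4 h, -0.21 at 2 Gy and 24 h and -0.03 at 2 Gy and 4 h, and the last 3 did not pass (adjusted p = 0.253, 0.156 and 0.877). The mean of the 4 was -0.19 ± 0.05 (SE, limma, adjusted p = 0.00162). At 0 Gy and 24 h 4 of the 6 arrays, parental replicates 1 and 3 and knockout replicates 1 and 2, each ended the call when left out (-0.30 to -0.32, adjusted p = 0.0511 to 0.0619). PKMYT1, the related kinase that acts on CDK1 at membranes, had a mean difference of -0.02 and was not called in any condition.

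CLSPN, which holds CHK1 near ATR for activation, was read at 7.04, 6.98 and 7.27 in parental cells at 0 Gy and 4 h, 7.05, 6.96 and 7.14 at 0 Gy and 24 h, 6.91, 6.65 and 7.27 at 2 Gy and 4 h, and 7.05, 6.50 and 7.08 at 2 Gy and 24 h. In knockout cells the values were 7.12, 7.25 and 7.32, then 6.98, 7.11 and 7.20, then 7.43, 7.23 and 7.38, then 7.15, 7.29 and 6.99. The lines overlapped in every condition, and the lowest parental arrays were replicate 2 of both 2 Gy groups, the arrays of narrow signal range. The mean difference of 0.21 ± 0.07 (SE) was called (limma, adjusted p = 0.0226) but fell to 0.12 without both of those arrays (adjusted p = 0.128), to 0.17 without the one at 4 h (adjusted p = 0.0549) and to 0.16 without the one at 24 h (adjusted p = 0.059). No single condition passed the test for CLSPN.

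Among the apical kinases, ATM, with a mean signal of 7.83, differed by -0.09 ± 0.05 (SE) between the lines (limma, adjusted p = 0.219). ATR lay close to background, although above it on all 24 arrays, and its values were scattered in parental cells. They were 3.62, 4.43 and 4.08 at 0 Gy and 4 h, 4.90, 4.20 and 3.67 at 0 Gy and 24 h, 3.79, 3.55 and 4.12 at 2 Gy and 4 h, and 4.51, 3.64 and 4.07 at 2 Gy and 24 h. The knockout arrays ran from 4.07 to 4.61, inside the parental range of 3.55 to 4.90. The SD of 3 arrays was 0.29 to 0.62 in the parental groups and 0.07 to 0.20 in the knockout groups. The mean difference of 0.30 ± 0.12 (SE) did not pass (limma, adjusted p = 0.0544), but ATR was called in 10 of 34 alternative settings, among them the replicate block (adjusted p = 0.0405), and was at 0.21 without both narrow-range arrays (adjusted p = 0.208). At 2 Gy and 4 h the difference was 0.53 at 2 Gy and 4 h, without overlap and without a call (adjusted p = 0.167). Left out one at a time, parental replicate 2 at 0 Gy and 4 h, replicate 1 at 0 Gy and 24 h, replicate 3 at 2 Gy and 4 h and replicate 1 at 2 Gy and 24 h, and knockout replicate 2 at 2 Gy and 24 h, gave a call of ATR in the mean (0.32 to 0.38, adjusted p = 0.00724 to 0.0492). Each was the highest parental or the lowest knockout array of its group, so leaving it out raised the difference.

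CHEK1 and CHEK2, the effector kinases, passed no test between the lines. CHEK1 group means ran only from 8.08 to 8.20, and the mean line difference was 0.03, with a 95% interval of -0.07 to 0.14. For CHEK2 it was 0.06, with an interval of -0.10 to 0.22. CDC25A, the phosphatase of the G1/S transition, which is degraded after damage, was at -0.16 ± 0.06 (SE, limma, adjusted p = 0.063), and was called in 7 of 34 alternative settings, with the replicate block (adjusted p = 0.0162), with quantile normalization (-0.19, adjusted p = 0.0144) and without any 1 of 5 arrays: parental replicate 1 at 0 Gy and 4 h, parental replicate 2 at 0 Gy and 24 h, knockout replicate 2 at 0 Gy and 4 h, knockout replicate 3 at 0 Gy and 24 h or knockout replicate 3 at 2 Gy and 4 h (-0.17 to -0.19, adjusted p = 0.0257 to 0.0494). Each of these arrays was the lowest parental or the highest knockout array of its group, so leaving it out widened the difference. The CDC25A knockout arrays lay under all parental arrays at 24 h, at 0 Gy and at 2 Gy, without a call (-0.28 and -0.19, adjusted p = 0.199 and 0.444).

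**Figure D3:**
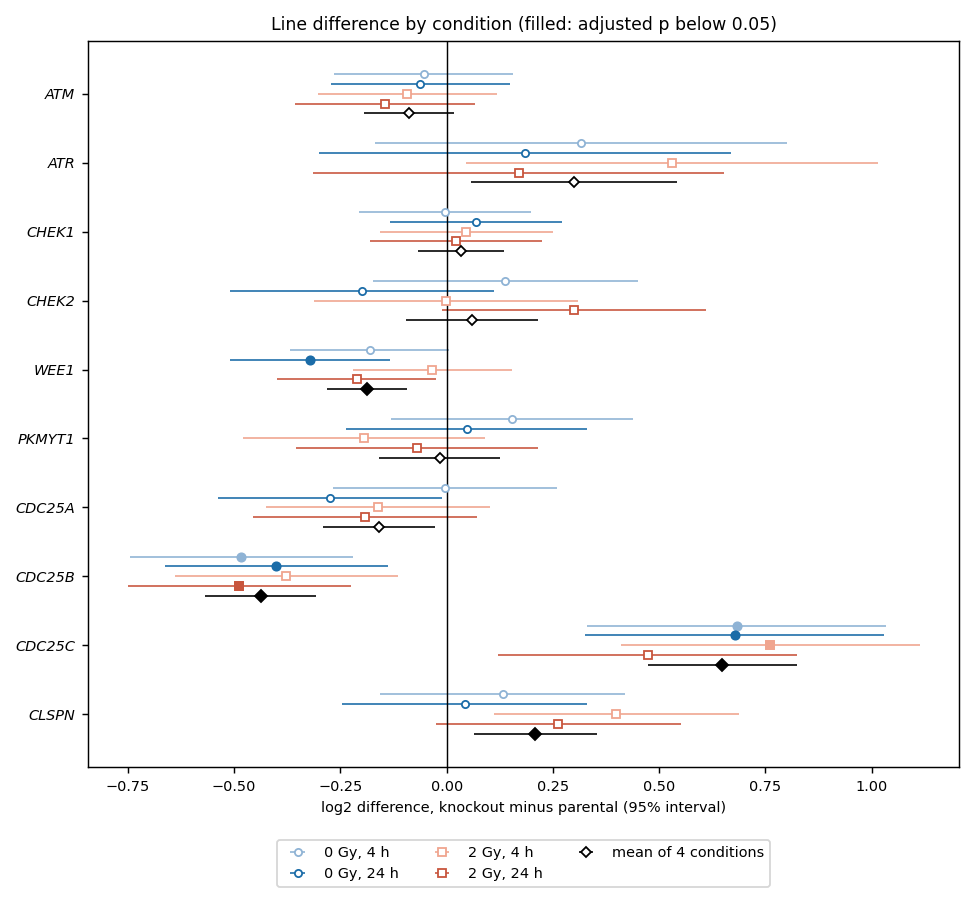
Difference in log2 signal between knockout and parental cells (x axis, with 95% intervals from limma) for the 10 genes (y axis) in each condition and in their mean; filled points passed the test. CDC25B lies left of 0 and CDC25C right of 0 in all conditions, and the intervals of ATM, CHEK1, CHEK2 and PKMYT1 cover 0 throughout.

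By condition, 2 of the 10 genes were called at 0 Gy and 4 h (CDC25B, CDC25C), against 11.8% of all genes, and 3 at 0 Gy and 24 h (WEE1, CDC25B, CDC25C), against 11.6%. At 2 Gy and 4 h 1 gene was called (CDC25C), against 12.0%, and at 2 Gy and 24 h 1 gene (CDC25B), against 12.0%. At 2 Gy and 24 h same-numbered replicates of the lines deviated together, and with the replicate block 2 genes were called, CDC25C joining CDC25B. The median 95% interval of a gene in this set was 0.27 on either side of a difference between 2 groups and 0.14 for the mean of the 4.

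After 2 Gy, WEE1 was the 1 gene of the set that passed the test at 4 h, and it kept the call in 9 of 22 alternative settings. Averaged over both lines it was 1.22-fold lower than at 0 Gy (-0.28 ± 0.06, SE, limma, adjusted p = 0.0364), the 1 call among the 10 genes where 0.384% of all genes were called. The 3 parental arrays at 2 Gy (7.80 to 7.85) lay below the 3 at 0 Gy (8.13 to 8.23), a difference of -0.36 (adjusted p = 0.144), and in knockout cells 7.66 to 7.89 lay below 7.90 to 8.19, a difference of -0.21 (adjusted p near 1). The call for the mean was lost without any 1 of the 6 parental arrays, without knockout 0 Gy replicate 1 and without knockout 2 Gy replicate 2 or 3 (-0.24 to -0.30, adjusted p = 0.0508 to 0.222), without both narrow-range arrays (adjusted p = 0.0944), in a fit of the compared arrays alone (adjusted p = 0.141), with no intensity trend (adjusted p = 0.146) and with quantile normalization (-0.26, adjusted p = 0.0564).

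CDC25C was lower at 4 h after 2 Gy on average in both lines, but no test passed. In parental cells it was 6.41, 5.47 and 6.49 after 2 Gy against 6.83, 6.38 and 6.70, and the groups overlapped. In knockout cells it was 7.02, 6.79 and 6.84 against 7.44, 7.34 and 7.18, without overlap. The differences were -0.51 and -0.43 (limma, adjusted p = 0.55 and near 1), and their mean, larger than that of WEE1, was -0.47 ± 0.12 (SE, adjusted p = 0.115). The lowest parental value, 5.47, was from replicate 2, one of the narrow-range arrays. The size of the parental difference and of the mean depends on that array. The mean was called in 3 of 22 alternative settings, with the replicate block and without parental 2 Gy, 4 h replicate 1 or 3. Those settings all kept the 5.47 array. PKMYT1 had the opposite sign in parental cells, with 5.82, 5.91 and 5.94 after 2 Gy against 5.26, 5.77 and 5.46, groups that did not overlap. That difference of 0.40 did not pass (adjusted p = 0.556), and in knockout cells it was 0.05. The remaining 7 genes had mean 4 h differences between -0.11 and 0.06, and none passed an unadjusted p of 0.05 in either line at 4 h.

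**Figure D4:**
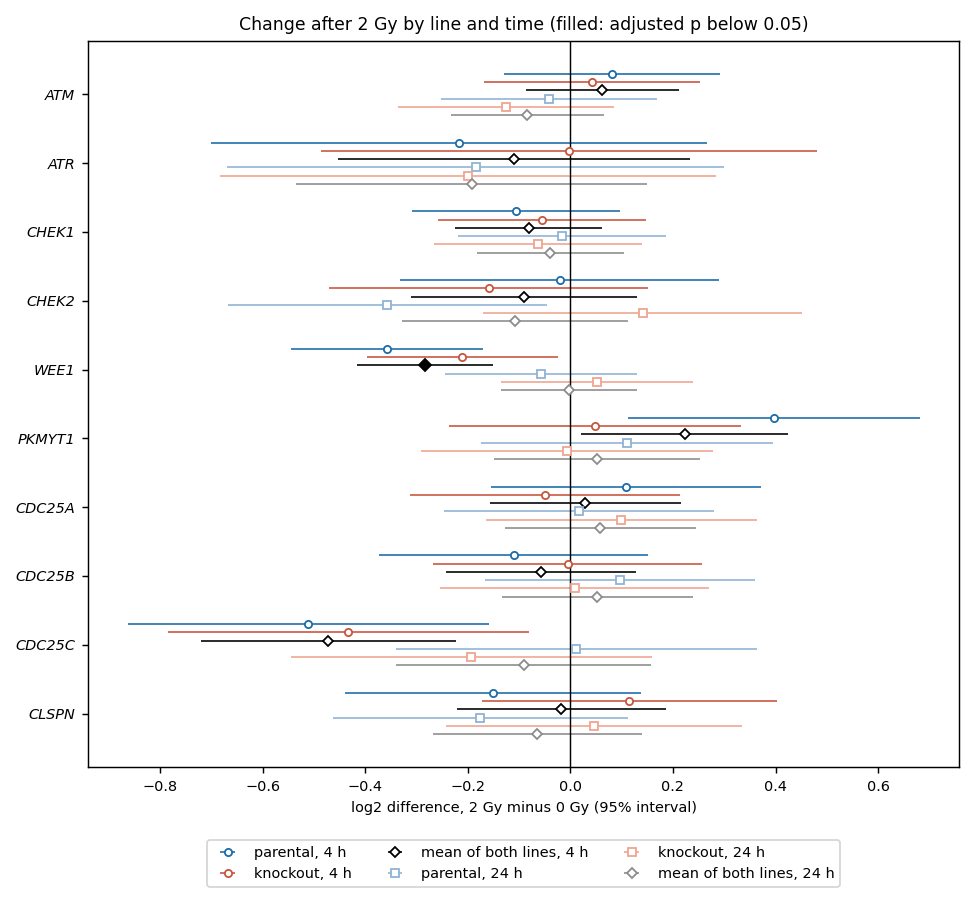
Difference in log2 signal between 2 Gy and 0 Gy (x axis, with 95% intervals from limma) for the 10 genes (y axis), in each line and averaged over both lines, at 4 h and at 24 h; the filled point passed the test. WEE1 and CDC25C lie left of 0 in both lines at 4 h, and only the WEE1 mean (-0.28) is filled.

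Counted by line, 0 of the 10 genes were called at 4 h in parental cells (limma; 3 at an unadjusted p under 0.05), where 0.226% of all genes were, and 0 in knockout cells (2 at an unadjusted p under 0.05), where 0% were. At 24 h 0 genes were called in parental cells (1 unadjusted, CHEK2; 0.0678% of all genes), 0 in knockout cells (0 unadjusted; 0% of all genes) and 0 in their mean (0 unadjusted; 0.0678% of all genes). Of all 17687 genes, 1183 in parental and 583 in knockout cells had an unadjusted p under 0.05 at 4 h (limma). At 24 h they numbered 1225 in parental cells, 736 in knockout cells and 1461 in the mean. The WEE1 difference at 24 h was 0.00 in the mean of the lines, with a 95% interval of -0.13 to 0.13. That of CDC25C was -0.09, with an interval of -0.34 to 0.16.

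Time alone gave no call. Between 4 h and 24 h without irradiation, 0 of the 10 genes were called in parental cells (limma; 0 unadjusted) and 0 in knockout cells (0 unadjusted), and 0% of all genes were called in each line. After 2 Gy, 0 of the 10 were called in parental cells (2 unadjusted), where 0.695% of all genes were, and 0 in knockout cells (0 unadjusted), where 0.0452% were. The largest such change was that of CDC25C in irradiated parental cells, 0.40 (adjusted p = 0.449). Those groups overlapped, and the size of the change depends on the narrow-range 4 h array, at 5.47 beside 6.41 and 6.49. WEE1 followed with 0.32 (adjusted p = 0.122), from 7.80 to 7.85 at 4 h to 8.10 to 8.19 at 24 h without overlap. These comparisons share the 2 Gy, 4 h arrays with the dose comparison, as the dose and line comparisons share arrays with each other. Between the times, 1556 of all 17687 genes in irradiated parental cells had an unadjusted p under 0.05 (limma), and 1405 in irradiated knockout cells. Without irradiation they numbered 830 in parental and 1215 in knockout cells.

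The response to 2 Gy was not shown to differ between the lines for any of the 10 genes. At 4 h, 0 genes were called (limma; 0 unadjusted) and 0% of all genes were. The difference of the responses, knockout minus parental, was 0.15 for WEE1, with a 95% interval of -0.12 to 0.41, 0.08 for CDC25C, with an interval of -0.42 to 0.58, and -0.35 for PKMYT1, with an interval of -0.75 to 0.05. At 24 h, 0 genes were called (1 unadjusted) and 0% of all genes were. Between times, the mean response at 24 h minus that at 4 h gave 0 calls (2 unadjusted), where 0.124% of all genes were called. That difference was 0.28 for WEE1 (adjusted p = 0.542) and 0.38 for CDC25C (adjusted p = 0.939). The size of the CDC25C value depends on the low parental array at 2 Gy and 4 h (5.47). The median 95% interval of a difference between the responses of the lines was 0.39 on either side. For that difference, 461 of all 17687 genes at 4 h and 560 at 24 h had an unadjusted p under 0.05 (limma). For the difference between times they numbered 880.

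The genes that act beside these 10 were read from lists of the pathway, and 46 of 49 were measured. In the mean line difference 20 were called higher and 8 lower, with a median of 0.06, where 30.4% of all genes were called (2794 higher and 2591 lower). Of 7 cyclins and cyclin-dependent kinases, the substrates' side of the checkpoint, 5 were higher and 1 lower. CDK1, the mitotic kinase, was higher by 0.44, cyclin B1 (CCNB1) by 0.31 and cyclin A2 (CCNA2) by 0.26, and CDK2 was lower, at -0.20. Of 9 genes of checkpoint recovery and turnover, 7 were higher and 0 lower (limma; 7 passed an unadjusted p of 0.05), among them USP28, a deubiquitinase of the CHK2 pathway (0.71), BTRC, which targets WEE1 and CDC25A for degradation (0.48), and MASTL, the Greatwall kinase (0.25). In the same comparison 6737 of all 17687 genes passed an unadjusted p of 0.05 (limma). CDK1 and BTRC lie on chromosome 10 among neighbours that were also higher, with medians of 0.24 and 0.31 over 40 genes. The neighbours of USP28, CCNB1 and CCNA2 had medians of -0.01, 0.05 and 0.05.

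Upstream, damage sensors and mediators were divided, with 2 of 10 higher and 3 lower, to be read against the same 30.4% of all genes, as are the counts that follow. BRCA1 and H2AX were higher, at 0.22 and 0.09. NBN and RAD50, of the complex that recruits ATM to breaks, were lower, at -0.40 and -0.22, and PRKDC, the kinase of end joining, was at -0.16. The neighbours of NBN were lower too, with a median of -0.28. Of 11 genes of ATR activation, 3 were higher and 1 lower, with HUS1 at 0.21, TOPBP1 at 0.16 and TIMELESS, a fork protection factor, at -0.29, where the neighbours' median was -0.21. Of the 7 14-3-3 proteins, which hold phosphorylated CDC25 in the cytoplasm, 2 were higher and 2 lower, with YWHAE at 0.11, YWHAZ at -0.09 and YWHAQ at -0.09. Centring each array on its median left 2 higher and 0 lower of these, and quantile normalization over genes gave 1 and 4 for the sensors, 1 and 2 for the 14-3-3 proteins and 6 and 0 for recovery. In the p38 arm, MAPKAPK2, a kinase that also acts on CDC25, was higher by 0.47, and its relative MAPKAPK3 was lower, at -0.37.

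At 4 h after 2 Gy, 4 of the 46 genes passed in the mean of both lines, all lower, where 0.384% of all genes passed, 66 of the 68 lower. CCNB1 was at -0.61, AURKA, the kinase that activates PLK1, at -0.59, PLK1, which promotes WEE1 degradation and CDC25C activity, at -0.42 and CCNA2 at -0.25 (limma, adjusted p = 3.52e-06, 7.58e-07, 5.01e-06 and 0.00846). WEE1 at -0.28 lay between PLK1 and CCNA2. In parental cells the values were -0.76, -0.72, -0.57 and -0.30, and in knockout cells -0.46, -0.45, -0.26 and -0.20. By line, 3 of the 46 genes were called in parental cells, all lower, and 0 in knockout cells. Of all genes 0.226% and 0% were called there. The medians over the 46 genes and over all genes in the mean of both lines were -0.07 and 0.01.

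For the 3 genes whose group means spanned the widest range, the genes of most similar pattern were read over 9557 genes by Pearson's r across all 24 arrays, a description that the difference between the lines shapes. Nearest to CDC25C (range of group means 1.19) were SECISBP2L (r = 0.94), HMGB2 (0.93) and DOCK1 (0.91). Within the 12 arrays of a line, HMGB2, a chromatin protein, kept 0.82 in parental and 0.85 in knockout cells, whereas SECISBP2L had 0.95 and 0.58 and DOCK1 0.87 and 0.55. Nearest to CDC25B were LGALS1 (0.88), MAGEA2 (0.88) and PPP1R1A (0.87), with 0.60, 0.52 and 0.54 within parental and 0.39, 0.67 and 0.46 within knockout cells. Nearest to ATR, at its low signal, were ATPAF1 (0.79), EPM2AIP1 (0.76) and DMXL1 (0.75), with 0.89, 0.90 and 0.74 within parental and 0.59, 0.28 and 0.41 within knockout cells.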

How the data were processed

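RNA of 24 ES8 samples was read on Affymetrix whole-transcript arrays. The values are log2 signals per probe set as deposited by the authors. They were made with RMA and Affymetrix Expression Console 1.1, per the submitters' processing notes, and the sources used here do not say which arrays were normalized together. Of 24351 probe sets, 17709 had 1 gene symbol, and keeping the highest-mean probe set left 17687 genes. No dim gene was left out.

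Differences were tested with limma 3.58.1 in R 4.3.3 (lmFit, then eBayes with a trend on intensity). The model held a mean for each of the 8 groups and used all 24 arrays, with Benjamini-Hochberg adjustment over all genes in each of 18 comparisons. A gene was called at an adjusted p below 0.05. All adjusted p-values come from this fit unless another is named. The code of the fit was checked on simulated arrays with known changes in the knockout 0 Gy, 4 h group. Those values were drawn independently for each array, so the check says nothing on the calls made here.

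The 10 genes, the pathway and marker lists and the tests were chosen with earlier results of these data known. Named besides the 10 were up to 3 called genes with the lowest adjusted p of each list, CDK2 as the 1 lower gene of its list, and the 3 most similar genes (mean signal above 5). BRCA1 and H2AX were named as the higher genes of the sensor list. EGR1, CXXC5 and the neighbours of list genes were read after their values were seen, as were the lists under other scalings. Same-numbered replicates deviated together, with every correlation above 0.1, in 4 of 12 comparisons of 2 groups. Promoters and gene order are from RefSeq.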

Additional observations from a re-analysis of the deposited data

Results flagged for a closer look

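The mean change of CHEK2 at 24 h after 2 Gy had opposite signs in the lines, and it is given here for that reason. In parental cells the CHEK2 signal was 6.46, 6.76 and 6.22 at 0 Gy and 6.31, 5.81 and 6.25 at 2 Gy, a difference of -0.36. The lowest of these, 5.81, was replicate 2, an array of narrow signal range, so the size of that difference depends on it. In knockout cells the signal was 6.44, 6.07 and 6.33 at 0 Gy and 6.30, 6.34 and 6.63 at 2 Gy, a difference of 0.14. The 95% interval of the knockout difference was -0.17 to 0.45 (limma), so a rise in knockout cells was not shown. The groups overlapped in both lines. The response of knockout cells minus that of parental cells was 0.50 ± 0.22 (SE), with a 95% interval of 0.06 to 0.94 and an adjusted p near 1 (limma), so the difference did not pass the test over all genes.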

How the results depend on the processing

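In the 6 comparisons with a call, the count of the 10 genes called stayed within 1.5 times in 90 of 120 alternative settings and moved in 30, and in the other 12 comparisons, which had none, 4 of 228 settings gave a call. No direction reversed among the calls followed. WEE1, CDC25B and CDC25C kept their calls in the mean line difference under all 34 settings, and CLSPN under 31. The replicate block and quantile normalization each added ATR and CDC25A there (6 called), and robust eBayes, median centring and leaving out dim genes each added ATR (5 called). For the lines at 2 Gy and 4 h (1 called), the replicate block and array weights each gave 3 (CDC25B, CDC25C and CLSPN), and median centring, quantile normalization, leaving out dim genes and leaving out both narrow-range arrays each gave 2. At 2 Gy and 24 h (1 called), fitting the compared arrays alone, the replicate block and array weights each gave 2. For 2 Gy against 0 Gy at 4 h in parental cells (0 called), and for 24 h against 4 h in irradiated parental cells (0 called), the replicate block and array weights each gave 1 (WEE1). For the mean of both lines at 4 h (1 called), the compared arrays alone, no intensity trend, quantile normalization and leaving out both narrow-range arrays each gave 0, and the replicate block gave 2 (WEE1 and CDC25C). The replicate block moved no other count by over 1.5 times. Leaving out 1 replicate gave 1 to 2 calls between the lines at 0 Gy and 4 h, 0 to 2 at 0 Gy and 24 h, 1 to 2 at 2 Gy and 4 h, 0 to 1 at 2 Gy and 24 h, and 0 to 1 for the mean of both lines at 4 h. Without parental 2 Gy, 4 h replicate 1 or 3 that call was CDC25C in place of WEE1. Both of those fits kept the low CDC25C value of replicate 2 (5.47), which then weighs more in its group. The neighbours of CDC25B had a median of -0.59 in a wider window of 60 genes, 20 on one side and 40 on the other, where CDC25B ranked 36 of 61. The causes were not tested. With 3 arrays a group, their number limits the precision.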
